A study of Mus musculus with 6 samples.

Results

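Integrin subunits, laminin chains and the linkers that join them to the cell and to the basement membrane were followed in skin RNA of mice with and without an active YAP transgene. The members were the protein-coding genes whose symbol is Itga or Itgb followed by a number or letter (*Itgax* and *Itgbl1* were left out by the rule, and binding proteins such as *Itgb1bp1* are no subunits), the genes of the laminin α, β and γ chains, and *Dst*, *Plec*, *Cd151*, *Nid1*, *Nid2*, *Fermt1* and *Fermt2*. All 44 were among the 26579 genes of the count matrix. Of these, 42 were at or above a level of 1 CPM (counts scaled to library size) in 3 or more libraries and were tested. The leukocyte subunit genes *Itgad* and *Itgb2l*, with at most 3 counts in a library, were not.

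The samples were dorsal neck skin biopsies of female littermates at 33 days of age, 3 of them wild type (WT) and 3 carrying YAP2-5SA-∆C (TG), with 1 library per mouse. YAP2-5SA-∆C mice overexpress a mutant of the transcriptional co-activator YAP in basal keratinocytes, and the biopsies were taken at the early onset of the visible phenotype. The wild type littermates carry no transgene, and no further treatment is named for either group. Every value is of whole skin, which holds epidermis, hair follicles, dermis, vessels, leukocytes and muscle.

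Integrins are receptors of an alpha and a beta chain that bind the extracellular matrix or other cells. In the epidermis, α6β4 sits in hemidesmosomes, where plectin and the epithelial form of dystonin tie it to keratin filaments and where it binds laminin-332, the laminin of the epidermal basement membrane that holds the α3 and β3 chains. The β2 and β7 integrins belong to leukocytes. Laminin-511 (α5β1γ1) is the other main epidermal laminin, and nidogens bridge laminins and type IV collagen.

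Keratinocyte marker genes were high in all libraries. Summed basal keratinocyte markers (*Krt5*, *Krt14*, *Krt15*, *Trp63*, *Dlk2* and *Sfn*) were 3547 to 4029 CPM in WT and 5379 to 6663 CPM in TG skin. Only *Krt14* of these 6 passed the test, with a log2 fold change of 0.95 ± 0.11 (SE), FDR = 0.0300. All 6 had log2 fold changes above 0, 4 had an unadjusted p under 0.05, 3 were called by the likelihood-ratio test and 3 did not overlap. Total counts per library ranged from 11225705 to 19505036. *Yap1* reads were 142, 125 and 126 CPM in WT and 136, 144 and 129.6 CPM in TG skin, and whether transgene reads were counted on the mouse gene is not known. TG replicate 2 stood apart. It was the highest library for 19 of the 42 members (26.1% of all tested genes had their highest value there), and its summed hair follicle markers (*Krt25*, *Krt27*, *Krt71*, *Tchh*, *Krt31*, *Krt35* and *Lhx2*) were the lowest of all libraries. Wild type replicate 2 was the lowest library for 15 of the 42 members, beside 20.5% of all tested genes. The hair follicle sums were 11684 to 14276 CPM in WT and 1329 to 8002 CPM in TG skin.

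In edgeR's quasi-likelihood test with Benjamini-Hochberg adjustment over all 15102 tested genes (threshold FDR 0.05), 2 of 42 members passed, both higher in TG skin. They were *Itgb2*, the β chain of LFA-1, Mac-1 and related leukocyte integrins, and *Lama1*, the α chain of laminin-111. Over all tested genes, 1.91% were called in either direction and 1.44% were called higher. The likelihood-ratio test of edgeR called 5 members, adding *Itga6*, *Itgae* and *Itgam*, against 10.4% of all genes. DESeq2 called 8, among the added ones *Itga6*, *Itgam*, *Itga5*, *Lama4* and *Lama5*, against 10.5%, and *Lama5* was the only one of the 8 that was lower. With TG replicate 2 left out, edgeR called 4 members (*Itgb2*, *Lama1*, *Itga6* and *Itgam*), against 5.46%. Without WT replicate 1 it called *Itgb2* alone, and without any 1 of the other 4 libraries it called none of the members, 11 to 15 of which had an unadjusted p under 0.05.

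Beyond the 2 called members, most differences were small. Across the 42 members the median log2 fold change was 0.12, beside -0.01 over all tested genes, and 29 lay above 0 and 13 below. Leaving out 1 library turned the direction or moved the log2 fold change by over 1.5 times in 27 of the 42. At an unadjusted p under 0.05 there were 11 higher and 4 lower members of the 42, beside 13.3% and 13.0% of all tested genes. In 12 members all TG values lay above all WT values, which held for 15.5% of all tested genes, and in 4 members all lay below, which held for 18.2%. The count of 12 of 42 is thus above its background share, and that of 4 of 42 is below. The same shares are the background for the counts given for other gene groups and marker lists. The heat map by library shows where these members fall.

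**Figure D1:**
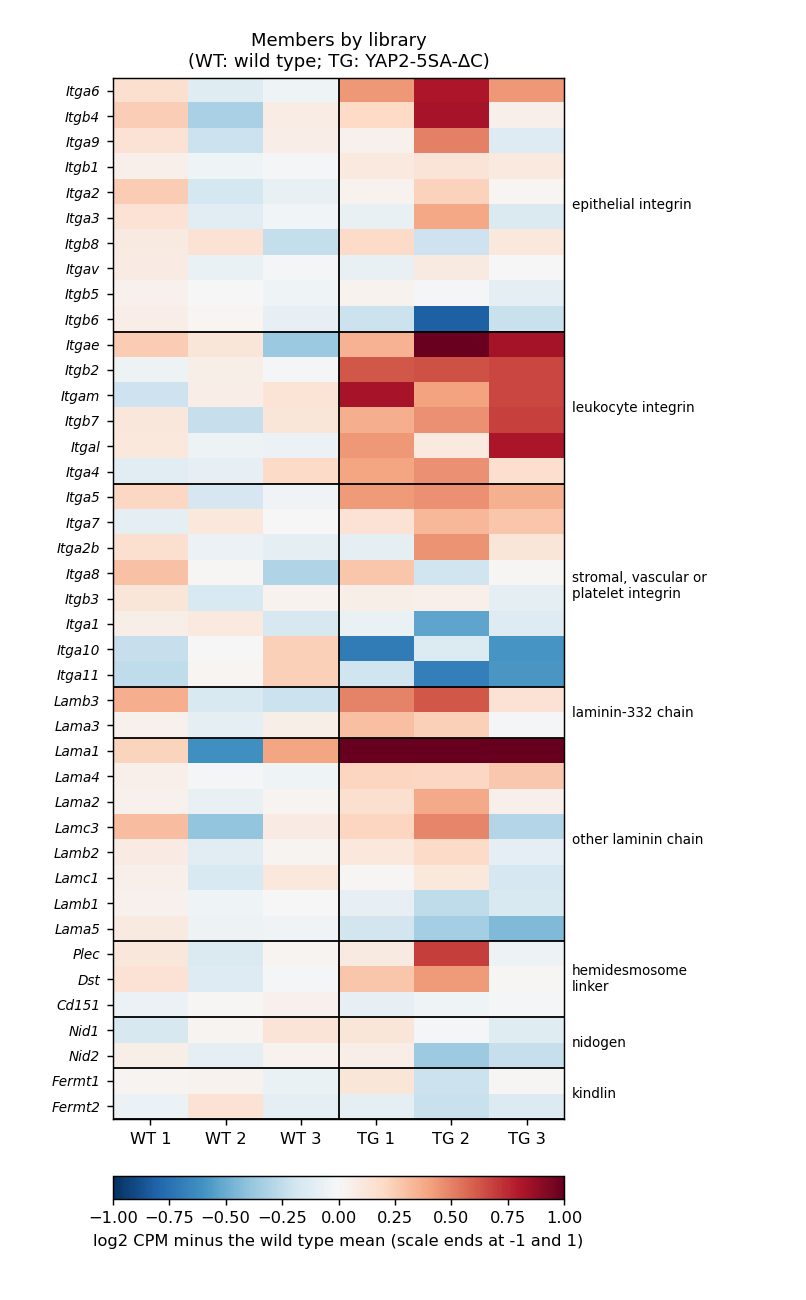
Colour gives each member's log2 CPM in each of the 6 libraries minus the mean of the 3 wild type (WT) libraries, with 41 of the 42 tested members (rows) ordered by group and by log2 fold change. The leukocyte integrins and *Lama1* are red in all 3 TG libraries, while *Itgb4* and *Plec* are dark red in TG replicate 2 alone.

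**Figure D2:**
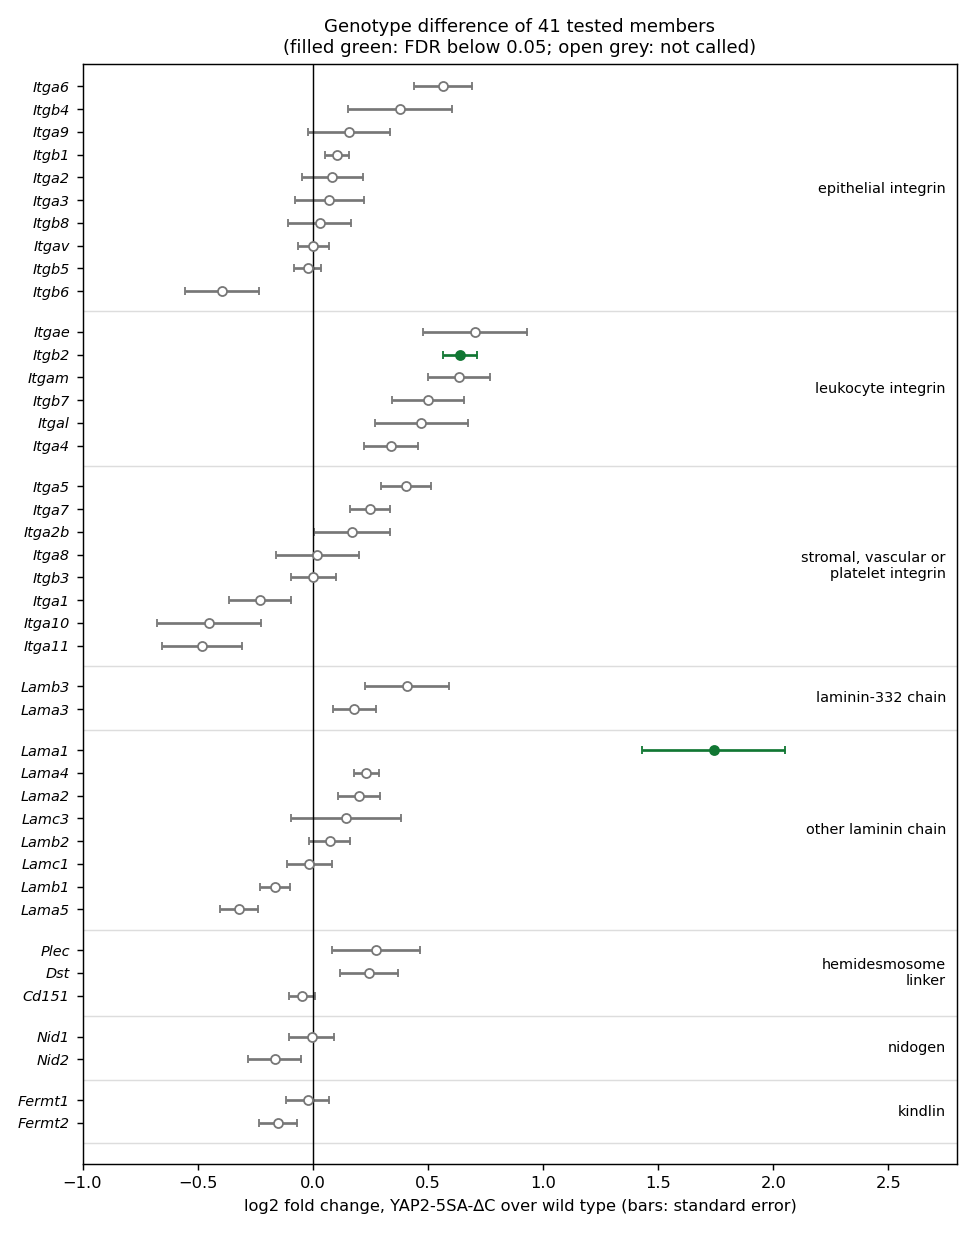
Points give the log2 fold change (YAP2-5SA-∆C over wild type, x axis) with its standard error for 41 of the 42 tested members, by group. Filled green points, *Itgb2* at 0.64 and *Lama1* at 1.74, passed FDR 0.05 in edgeR's quasi-likelihood test, and open grey points did not.

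The start sites of some members are shown first, because YAP acts through TEAD factors bound to DNA. RefSeq promoters (GRCm38.p6, 250 bases before to 50 after a start site) were at hand for 28 members. The TEAD core GGAATG, on either strand, was found in 4 of these 28 members (*Itga10*, *Itgb1*, *Lamb3* and *Nid1*), or 14.3%, beside 16.6% of 27025 genes. The AP-1 site TGANTCA was found in 2 members (*Itga3* and *Itga9*), or 7.14%, beside 8.97% of genes. Neither share exceeded that of all promoters. The other members and bases outside this window, such as enhancers, were not searched, so the shares cannot show whether members are TEAD targets. The stretches around the TEAD match of *Itgb1* (chr8:128685614-128685653), *Lamb3* (chr1:193302059-193302098) and *Nid1* (chr13:13437420-13437459), all on the + strand, are printed with the core in capitals, since these are a β chain, a laminin-332 chain and a linker.
Itgb1: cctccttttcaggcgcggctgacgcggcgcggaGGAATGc
Lamb3: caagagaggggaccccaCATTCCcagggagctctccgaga
Nid1: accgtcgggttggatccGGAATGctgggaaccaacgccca
None of *Itgb1*, *Lamb3*, *Nid1* and *Itga10* was called between the genotypes. A match is a run of letters in a window and no evidence of binding.

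Among the leukocyte integrins, all 6 tested members were higher in TG skin on average, with a median log2 fold change of 0.57, and 1 of the 6 passed the test. Their summed level was 58.2 to 65.0 CPM in WT and 86.3 to 91.0 CPM in TG skin, without overlap. In bulk skin, more leukocytes and more RNA per leukocyte cannot be told apart.

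*Itgb2* (chr10:77530252-77565708, GRCm38) encodes CD18, the β chain of LFA-1 and Mac-1. Its level was 13.0, 14.1 and 13.4 CPM in the WT mice and 20.801, 21.004 and 21.406 CPM in the TG mice. The groups lay far apart with little spread within either, and the log2 fold change was 0.64 ± 0.07 (SE), FDR = 0.0300. DESeq2 gave an adjusted p of 6.95e-05. Leaving out 1 library at a time kept the log2 fold change between 0.62 and 0.67, with FDRs from 0.0154 to 0.163.

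*Itgam* (chr7:128062640-128118491) encodes CD11b, the α chain of Mac-1 on macrophages and neutrophils. It was measured at 15.1, 18.3 and 19.2 CPM in WT and 30.9, 23.1 and 27.6 CPM in TG skin, again without overlap. The log2 fold change, 0.63 ± 0.14 (SE), FDR = 0.0588, missed the threshold, and the likelihood-ratio test gave an FDR of 0.00634. Without TG replicate 2, its lowest transgenic library, the quasi-likelihood FDR was 0.0216. Exons of *Itgam* share bases with the annotated gene *Gm49368* on the same strand, so its count is uncertain to that extent.

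The last 100 bases before the *Itgam* start (chr7:128062540-128062639, + strand) are shown because they hold a pair of matches to the PU.1 core GAGGAA, in capitals, 1 on each strand. PU.1 is a transcription factor of myeloid cells. This motif was chosen after the values were seen.
Itgam: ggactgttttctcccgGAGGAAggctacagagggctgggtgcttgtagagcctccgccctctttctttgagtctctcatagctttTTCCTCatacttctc
The core occurred in 16 of 28 members with a promoter (57.1%) and in 31.3% of all genes. The members with a match included *Lama5*, *Lamb1*, *Itgav* and others that are not leukocyte genes, and in *Itgb1* it overlaps the TEAD match. *Itgb2*, the called leukocyte integrin, was not among them. Here too a match is no evidence of binding.

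*Itgal* encodes CD11a, the α chain of LFA-1 on lymphocytes and other leukocytes. It was low, at 3.74, 3.35 and 3.33 CPM in WT and 4.67, 3.71 and 6.12 CPM in TG skin. The groups overlapped and the log2 fold change was 0.47 ± 0.20 (SE), FDR = 0.193. Without TG replicate 3 it was 0.27. *Itga4*, whose product pairs with β1 or β7 in leukocyte homing, was at 17.8, 18.0 and 21.8 CPM in WT and 25.1, 26.2 and 21.5 CPM in TG skin. TG replicate 3 lay just under the highest WT mouse, and the log2 fold change was 0.34 ± 0.12 (SE), FDR = 0.126.

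The αE and β7 chains form the E-cadherin receptor (CD103) of T cells and dendritic cells lodged in epithelia. *Itgae* was at 3.96, 3.61 and 2.57 CPM in WT and 4.23, 6.59 and 5.93 CPM in TG skin. *Itgb7* was at 4.45, 3.51 and 4.47 CPM in WT and 5.28, 5.65 and 6.62 CPM in TG skin. Neither gene overlapped between the groups. The log2 fold change was 0.70 ± 0.22 (SE), FDR = 0.111, for *Itgae*. For *Itgb7* it was 0.50 ± 0.16 (SE), FDR = 0.105. The likelihood-ratio test gave *Itgae* an FDR of 0.0294, under the threshold, and *Itgb7* one of 0.107.

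General leukocyte markers moved with these integrins. All 5 (*Ptprc*, *Cd53*, *Coro1a*, *Laptm5* and *Lcp1*) passed the quasi-likelihood test, with a median log2 fold change of 0.62. Their sums were 139 to 153 CPM in WT and 218 to 243 CPM in TG skin. Macrophage markers had 2 of 7 called higher and all 7 higher without overlap, beside 1.44% and 15.5% of all tested genes. Neutrophil markers had 1 of 4 tested called, *Cxcr2*, and sums of 16.6 to 51.9 CPM in WT and 37.2 to 85.7 CPM in TG skin. Mast cell markers had 1 of 6 tested called higher, *Cma1*, and sums of 155 to 174 CPM in WT and 199 to 250.5 CPM in TG skin. Of these 6, 5 were called by the likelihood-ratio test and 5 were higher without overlap, beside 10.4% and 15.5% of all tested genes. Of the T cell markers, 0 of 5 tested were called in edgeR's quasi-likelihood test, with 1 at an unadjusted p under 0.05 and 1 called by the likelihood-ratio test.

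Set against *Ptprc* (CD45) within each library, on a log2 scale per kilobase of exon, *Itgb2* was at 1.03, 1.21 and 0.91 in WT and 1.04, 1.13 and 0.95 in TG skin. The difference of the means was -0.01, smaller than the SD of either group. For *Itgam* over *Ptprc* the difference was -0.02. The ratio of *Itga4* to *Ptprc* was lower in every TG library, with a mean difference of -0.32. The remaining ratios to *Ptprc*, of *Itgal*, *Itgae* and *Itgb7*, overlapped between the groups. *Ptprc* was itself called higher and enters each of these ratios in full. The lower *Itga4* ratio therefore does not show that *Itga4* was lower, and its own log2 fold change was 0.34. *Itgb2*, *Itgam* and *Ptprc* were all higher in the TG libraries, and why was not tested.

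**Figure D3:**
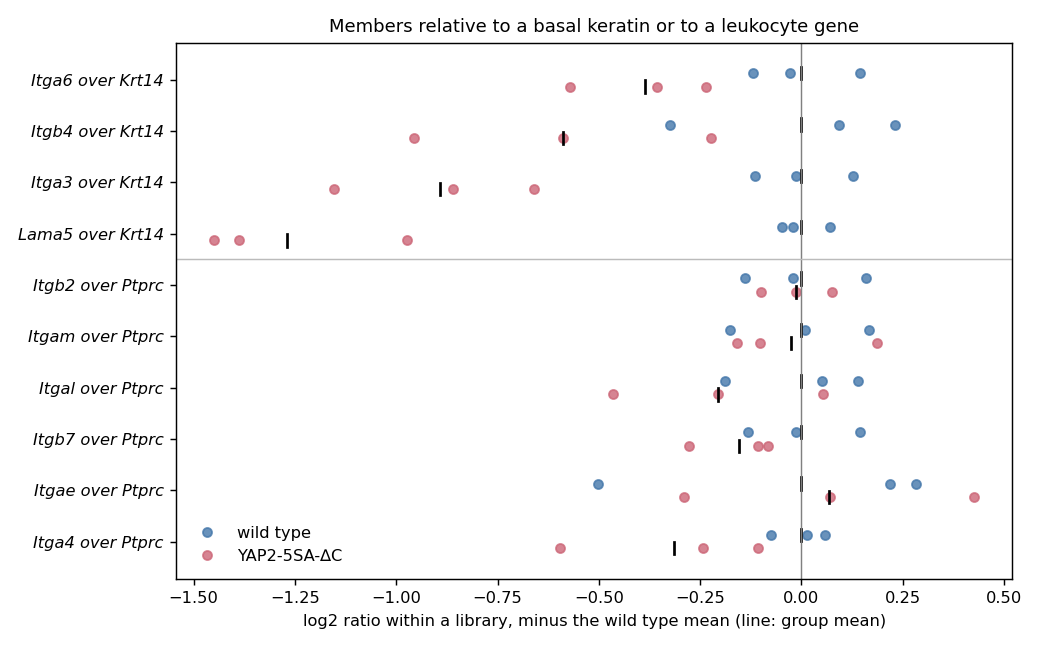
Each point is 1 library's log2 ratio of 2 genes per kilobase of exon, minus the WT mean (x axis), with black lines at the group means. The ratios to *Krt14* lie left of 0 in all 3 TG libraries for the 4 members shown. The ratios of *Itgb2* and *Itgam* to *Ptprc* lie on both sides of 0 in both groups. *Krt14* and *Ptprc* were themselves higher in TG skin.

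The epithelial integrins held the largest levels. Per kilobase of exon, *Itgb1*, the β chain of most matrix-binding integrins, was the highest of all integrin subunits in both groups, with 57.5 ± 1.91 in WT and 61.9 ± 0.796 in TG skin (CPM per kilobase, SD, n = 3). It made up 53.4% ± 0.504 in WT and 53.1% ± 0.969 in TG skin of all β chain transcripts by this measure. *Itga6* was the highest α chain and *Itgb5* the second β chain. None of the 10 passed the quasi-likelihood test and 1 was called by the likelihood-ratio test. In the quasi-likelihood test 2 had an unadjusted p under 0.05, 1 higher and 1 lower, beside 13.3% and 13.0% of all tested genes. The median log2 fold change of the 10 was 0.08.

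*Itga6* (chr2:71745616-71858416) encodes the laminin-binding chain that pairs with β4 in hemidesmosomes and with β1. Its level was 236, 194 and 205 CPM in WT and 285, 370.5 and 285 CPM in TG skin. Every TG library was above every WT one, with replicate 2 the highest. The log2 fold change was 0.57 ± 0.13 (SE), FDR = 0.0615, just over the threshold. The likelihood-ratio FDR was 0.0105. With TG replicate 2 left out, the quasi-likelihood FDR was 0.0340 and the log2 fold change was 0.45. Its share of α chain transcripts per kilobase was 33.8% ± 1.34 in WT and 40.8% ± 2.52 in TG skin.

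*Itgb4* (chr11:115974709-116008412), the partner of α6 in hemidesmosomes, overlapped between the groups. Values were 81.4, 54.7 and 72.3 CPM in WT and 78.8, 121 and 71.0 CPM in TG skin. Only replicate 2 lay above the WT range, and the log2 fold change was 0.38 ± 0.23 (SE), FDR = 0.327. Without that library it was 0.13. Summed suprabasal keratinocyte markers were also highest in TG replicate 2, at 19452 CPM, against 10620 and 11669 CPM in the other TG libraries and 7908 to 10318 CPM in WT, and their part in the *Itgb4* values was not tested. The ratio of *Itga6* to *Itgb4* within libraries overlapped between the groups, with a difference of 0.20 on the log2 scale.

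No test called the other laminin and collagen receptor chains of keratinocytes. *Itga3*, whose product joins β1 as a laminin-332 receptor, had 54.1, 45.2 and 47.9 CPM in WT and 46.6, 64.1 and 44.2 CPM in TG skin, a log2 fold change of 0.07 ± 0.15 (SE), FDR = 0.792. *Itga2*, the collagen-binding chain, had a log2 fold change of 0.09 ± 0.13 (SE), FDR = 0.719. For *Itgb1* the values were 243, 228 and 233 CPM in WT and 251, 256 and 251 CPM in TG skin. They did not overlap, yet the log2 fold change was only 0.11 ± 0.05 (SE), FDR = 0.263.

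The αv integrins bind arginine-glycine-aspartate motifs, and αvβ6 and αvβ8 activate latent TGF-β. *Itgav* was near equal in both groups, with a log2 fold change of 0.00 ± 0.07 (SE), FDR = 0.979. *Itgb6*, the epithelial β chain, was at 45.5, 44.1 and 41.0 CPM in WT and 37.5, 24.7 and 37.3 CPM in TG skin. It was lower in every TG library, most of all in replicate 2, and the log2 fold change was -0.39 ± 0.16 (SE), FDR = 0.174. Without that replicate it was -0.20. Hair follicle markers were also lower, without overlap in 6 of 7 genes, and their sum was lowest in replicate 2. In edgeR, 0 of these 7 passed the quasi-likelihood test, 5 had an unadjusted p under 0.05 and 5 passed the likelihood-ratio test. Their part in the *Itgb6* values was not tested. *Itgb5*, *Itgb8* and *Itga9* had log2 fold changes from -0.02 to 0.16, and all 3 overlapped. Without TG replicate 2 they were -0.01, 0.16 and -0.03, in this order.

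The ratios of basal integrins to *Krt14* were lower in TG libraries. The rise of *Krt14* itself, 0.95 on the log2 scale, enters each of these ratios in full, so they do not show that the integrins were lower. The log2 ratio of *Itga6* to *Krt14* per kilobase was -5.18, -5.44 and -5.35 in WT and -5.68, -5.56 and -5.90 in TG skin, a difference of -0.39 with no overlap. For *Itga3* the difference was -0.89, also with no overlap. For *Itgb4* it was -0.59, with overlap. Against *Krt5* the *Itga6* ratio differed by -0.15 and overlapped, whereas the *Itgb4* ratio differed by -0.36 with no overlap. The size of both differences depended on the keratin chosen. The ratio of *Itgb4* to *Col17a1*, a hemidesmosomal collagen, differed by -0.18 on the log2 scale, lower in TG skin with no overlap. *Krt5* and *Col17a1* were also higher on average in TG skin and enter their ratios in full. These ratios, too, do not show that the integrins were lower.

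**Figure D4:**
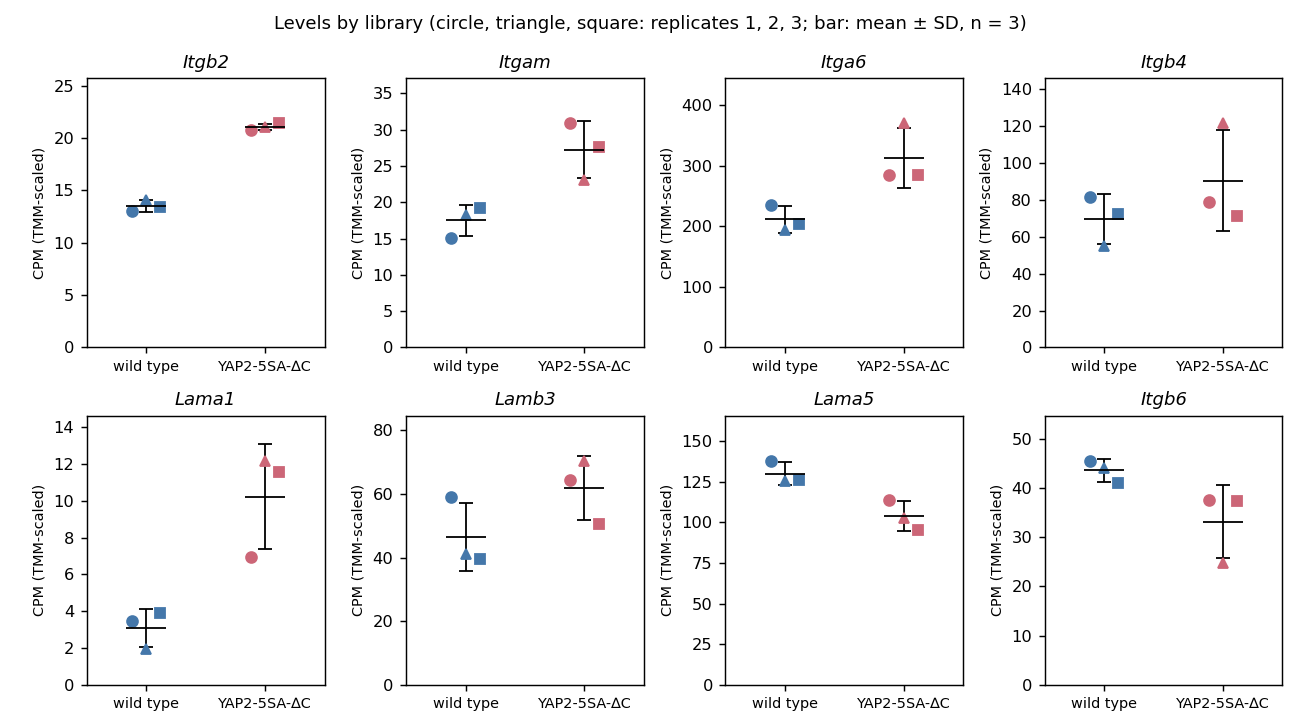
Each panel gives 1 gene's level in CPM (TMM-scaled, y axis from 0) in the 3 wild type (blue) and 3 YAP2-5SA-∆C (red) libraries, with the mean ± SD. *Itgb2* and *Lama1* are the called genes, *Lama5* and *Itgb6* lie lower in TG skin, and *Itgb4* overlaps.

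The integrins of stroma, vessels and platelets gave no call among 8 tested members in edgeR's quasi-likelihood test, with 3 at an unadjusted p under 0.05 and 0 in the likelihood-ratio test. DESeq2 called 1 of them, *Itga5*. This gene encodes the fibronectin receptor α chain and was at 18.7, 14.4 and 15.8 CPM in WT and 21.8, 22.2 and 20.7 CPM in TG skin. The groups did not overlap, and the log2 fold change was 0.40 ± 0.11 (SE), FDR = 0.0790. *Itga7*, the laminin receptor chain of muscle, was at 22.5, 26.0 and 24.1 CPM in WT and 26.6, 30.4 and 29.2 CPM in TG skin, also higher without overlap. Summed skeletal muscle markers overlapped widely, at 3679, 16837 and 13958 CPM in WT and 3581 to 8946 CPM in TG skin. All 7 of these markers had log2 fold changes below 0, with a median of -1.11, and 0 were called. At the other end were *Itga11*, a fibrillar collagen receptor of fibroblasts, with a log2 fold change of -0.48, and *Itga10* with -0.45, and both overlapped. Fibroblast markers lay the other way, with sums of 9449 to 12801 CPM in WT and 12256 to 15936 CPM in TG skin. Of the fibroblast markers, 4 of 6 were higher without overlap, beside 15.5% of all tested genes. Of these 6, 0 were called in edgeR's quasi-likelihood test, 3 had an unadjusted p under 0.05 and 0 were called by the likelihood-ratio test. The other 4 members (*Itga1*, *Itga2b*, *Itga8* and *Itgb3*) had log2 fold changes from -0.23 to 0.17. Without TG replicate 2 they were -0.08, 0.03, 0.14 and -0.003, in this order.

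The α3 and β3 chains of laminin-332 were not called by any of the quasi-likelihood, likelihood-ratio and DESeq2 tests. *Lamb3*, the β3 chain, was at 58.9, 41.2 and 39.5 CPM in WT and 64.5, 70.5 and 50.7 CPM in TG skin. Wild type replicate 1 fell inside the TG range, and the log2 fold change was 0.41 ± 0.18 (SE), FDR = 0.207, or 0.62 without that library. *Lama3*, the α3 chain, was at 123, 112 and 125 CPM in WT and 148, 141 and 119 CPM in TG skin, a log2 fold change of 0.18 ± 0.09 (SE), FDR = 0.268. Here the groups overlapped as well, and so did the ratio of *Lama3* to *Lamb3* within libraries.

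*Lama1* (chr17:67697259-67822647) encodes the α1 chain, known best from embryonic basement membranes. It was at 3.46, 1.94 and 3.90 CPM in WT and 6.95, 12.2 and 11.5 CPM in TG skin, from 37 to 63 counts in WT and 125 to 207 counts in TG libraries. The lowest TG mouse was above the highest WT mouse, and replicates 2 and 3 were higher still. The log2 fold change was 1.74 ± 0.31 (SE), FDR = 0.0467. Among the members this was the largest difference, and the likelihood-ratio test gave an FDR of 3.83e-08. With voom in limma the FDR was 0.0568, over the threshold. When 1 library was left out at a time, its log2 fold change ranged from 1.48 to 1.97 and its FDR from 0.0381 to 0.178.

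Even so, *Lama1* remained the rarest α chain. It made up 0.771% ± 0.240 in WT and 2.40% ± 0.717 in TG skin (SD, n = 3) of laminin α chain transcripts per kilobase of exon. No annotated gene shares exon bases with it. The cells that hold it are not known from whole skin.

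*Lama5* (chr2:180176373-180225859), the α chain of laminin-511 and laminin-521, lay lower in TG skin. Its level was 138, 125 and 126 CPM in WT and 114, 103 and 95.5 CPM in TG skin. All TG values lay below all WT values, and the log2 fold change was -0.32 ± 0.08 (SE), FDR = 0.0717. DESeq2 called it, with an adjusted p of 0.0205. Its share of α chain transcripts was 27.7% ± 0.717 in WT and 20.7% ± 1.25 in TG skin. As with *Itgb6*, the part of hair follicle RNA in this was not tested.

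The partners of α5 in laminin-511 differed less. *Lamb1* was at 202, 189 and 195 CPM in WT and 184, 163 and 175 CPM in TG skin, lower without overlap by a log2 fold change of -0.16, or -0.10 without TG replicate 2. *Lamc1*, the γ chain of most laminins and the highest laminin chain per kilobase, had a log2 fold change of -0.01 and overlapped. Among β chains the share of *Lamb1* was 50.1% ± 2.14 in WT and 43.8% ± 3.96 in TG skin, and that of *Lamb3* was 17.7% ± 2.81 in WT and 23.2% ± 2.52 in TG skin. *Lamb1* shares did not overlap between the groups, while *Lamb3* shares did.

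*Lama4*, the α chain of vessel basement membranes, was at 119.7, 115 and 112 CPM in WT and 134, 133 and 139 CPM in TG skin, with no overlap. Its log2 fold change of 0.23 had a quasi-likelihood FDR of 0.0635 and an adjusted p of 0.0216 in DESeq2. Endothelial markers summed to 129 to 144 CPM in WT and 148 to 177 CPM in TG skin, with 0 of 7 called in edgeR's quasi-likelihood test, 2 at an unadjusted p under 0.05 and 0 in the likelihood-ratio test. *Lama2*, the α chain of muscle and nerve laminins, did not overlap either, with a log2 fold change of 0.20, or 0.12 without TG replicate 2. *Lamb2* and *Lamc3* overlapped.

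**Figure D5:**
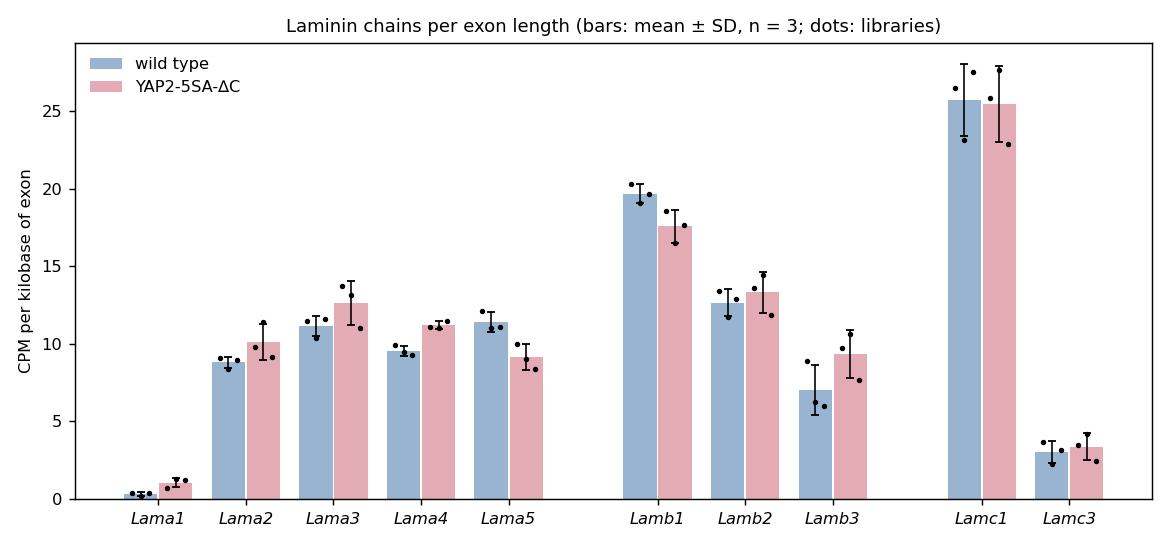
Bars give the mean ± SD (n = 3) of 10 laminin chains in CPM per kilobase of exon (y axis, from 0) for wild type (blue) and YAP2-5SA-∆C (red) skin, with a dot per library. *Lamc1* is the highest of these chains and *Lama1* the lowest in both groups, and *Lama5* and *Lamb1* are lower in all 3 TG libraries.

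None of the 3 hemidesmosome linkers was called by the quasi-likelihood, the likelihood-ratio or the DESeq2 test. In the quasi-likelihood test 0 had an unadjusted p under 0.05. *Plec* was at 631, 529.8 and 597 CPM in WT and 623, 942 and 564 CPM in TG skin. Its log2 fold change was 0.28 ± 0.19 (SE), FDR = 0.395, and was 0.04 without TG replicate 2, the only library outside the WT range on the high side. *Plec* shares exon bases with *Parp10* on the same strand. *Dst* was at 938, 779 and 839 CPM in WT and 1027, 1141 and 857 CPM in TG skin, with a log2 fold change of 0.24 ± 0.13 (SE), FDR = 0.263, and its unadjusted p in DESeq2 was 0.0372. Both genes have muscle and nerve isoforms that a count per gene does not separate from the epithelial one. *Cd151*, a tetraspanin bound to laminin receptors, was near equal, with a log2 fold change of -0.05 ± 0.06 (SE), FDR = 0.642.

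None of the nidogens and kindlins was called by the quasi-likelihood, the likelihood-ratio or the DESeq2 test, and 0 had an unadjusted p under 0.05 in any of them. *Nid1*, at 189, 215 and 231 CPM in WT and 229.6, 209 and 194 CPM in TG skin, had a log2 fold change of -0.01 ± 0.10 (SE), FDR = 0.976. *Nid2* had a log2 fold change of -0.16 ± 0.11 (SE), FDR = 0.397, which was -0.06 without TG replicate 2 and -0.28 without TG replicate 1. *Fermt1* encodes kindlin-1, the epithelial activator of integrins, and had a log2 fold change of -0.02 ± 0.09 (SE), FDR = 0.905. *Fermt2*, kindlin-2 of most other cells, was at 46.6, 53.7 and 45.7 CPM in WT and 45.6, 41.5 and 44.2 CPM in TG skin, lower without overlap by a small log2 fold change of -0.15 ± 0.08 (SE), FDR = 0.281. Without WT replicate 2 this was -0.08.

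Other genes of the basement membrane and of integrin adhesions were read from lists of partners. Of 19 basement membrane partners, 0 passed in edgeR's quasi-likelihood test and 1, *Ntn4*, was called by the likelihood-ratio test. In the quasi-likelihood test 4 had an unadjusted p under 0.05, 1 higher and 3 lower, beside 13.3% and 13.0% of all tested genes. *Ntn4* encodes netrin-4, which binds laminin γ chains and disrupts laminin networks. It was at 25.7, 29.7 and 33.2 CPM in WT and 18.9, 11.0 and 20.7 CPM in TG skin, without overlap and lowest in replicate 2, with a log2 fold change of -0.81 ± 0.23 (SE), FDR = 0.0883. *Col17a1*, the hemidesmosomal collagen XVII, had a log2 fold change of 0.56 ± 0.20 (SE), FDR = 0.139, and *Col7a1*, the collagen of anchoring fibrils, had a log2 fold change of 0.58 ± 0.25 (SE), FDR = 0.193. The type IV collagen gene *Col4a1* was lower without overlap, with a log2 fold change of -0.22 ± 0.08 (SE), FDR = 0.134.

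Among 22 adaptors of integrin adhesions, 0 passed in edgeR's quasi-likelihood test and 0 were called by the likelihood-ratio test. In the quasi-likelihood test 5 had an unadjusted p under 0.05, 2 higher and 3 lower, beside 13.3% and 13.0% of all tested genes. The median log2 fold change was 0.04. *Tln1*, the talin of most cells, had a log2 fold change of 0.19 ± 0.09 (SE), FDR = 0.237, while *Tln2* was lower without overlap, with a log2 fold change of -0.49 ± 0.14 (SE), FDR = 0.0935. *Fermt3*, the kindlin of blood cells, was at 10.4, 9.37 and 10.2 CPM in WT and 12.8, 11.9 and 12.5 CPM in TG skin, higher without overlap, with a log2 fold change of 0.31 ± 0.09 (SE), FDR = 0.0873. *Vcl*, *Ilk* and *Parva* differed by at most 0.06 on the log2 scale in either direction.

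Among 7 matrix ligands of integrins, 1 passed the quasi-likelihood test, 4 had an unadjusted p under 0.05, 3 were called by the likelihood-ratio test and 3 did not overlap. *Thbs1*, thrombospondin-1, rose from 111, 109 and 110.1 CPM in the WT mice to 148, 171 and 152 CPM in the TG mice, with a log2 fold change of 0.51 ± 0.07 (SE), FDR = 0.0346. *Tnc*, tenascin-C, a ligand of α9β1, was at 143, 126 and 143 CPM in WT and 259, 161 and 303 CPM in TG skin. It did not overlap but varied widely within TG skin, and the log2 fold change was 0.81 ± 0.21 (SE), FDR = 0.0768. *Spp1*, osteopontin, was at 1.98, 1.52 and 1.52 CPM in WT and 8.01, 1.88 and 4.93 CPM in TG skin, with a log2 fold change of 1.55 ± 0.49 (SE), FDR = 0.109. *Fn1*, fibronectin, overlapped, with a log2 fold change of 0.19 ± 0.16 (SE), FDR = 0.474.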

How the data were processed

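RNA-Seq libraries of dorsal neck skin from 3 wild type and 3 YAP2-5SA-∆C mice were analysed from the matrix of raw counts per Ensembl gene that the authors deposited. Reads had been aligned by the authors to GRCm38 (TopHat2, calling Bowtie2 2.1.0), and HTSeq-count had tallied those that mapped uniquely. The submitters' processing notes name TopHat2 2.0.12, and the methods name another version. Annotation release and strand setting were not given in the sources used here, so reads shared by overlapping genes are uncertain for 17 members. The methods describe mRNA libraries and the labels a stranded total RNA kit.

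The tested genes were those at 1 CPM or more in 3 or more samples, scaled with TMM. The main test was the quasi-likelihood test of edgeR 4.0.16 in R 4.3.3, with genotype as the only term and Benjamini-Hochberg adjustment (FDR) over 15102 genes. The alternatives comprised edgeR's likelihood-ratio test, voom in limma 3.58.1, DESeq2 1.42.0, scaling by RLE or upper quartile, looser and stricter count filters, a block on replicate number, and each library left out in turn. The tests were tried on simulated counts. P-values cover the spread between the mice of 1 cohort.

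Gene models came from GENCODE M21, in which 558 matrix identifiers were absent. Levels between genes were compared as CPM per kilobase of the gene's merged exons. Members and gene lists were chosen with earlier results of these data known. Fold change, SE and FDR were to be given for called members and for 24 preset members, and others were added where their values bear on a result. Protein sequences were not analysed here. Total counts of 11225705 to 19505036 set the precision of low genes, such as *Itgal*. Values of 1 laminin chain are not reported here.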

Additional observations from a re-analysis of the deposited data

How the results depend on the processing

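The 2 called members were called under RLE scaling, upper-quartile scaling and a filter of at least 10 counts in every sample, and with no filter *Itga6* joined them. Counts of called members and of all called genes were 5 and 1568 with the likelihood-ratio test, 8 and 1583 with DESeq2, 1 and 249 with voom, and 3 and 497 with no low-count filter. Leaving out 1 library gave 0 to 4 called members and 0 to 816 called genes. The highest numbers came when YAP2-5SA-∆C replicate 2 was left out. Leaving out YAP2-5SA-∆C replicate 1 gave 0 and 86, and leaving out wild type replicate 1 gave 1 and 142. With wild type replicate 2, its replicate 3, or YAP2-5SA-∆C replicate 3 left out, no gene passed in edgeR's quasi-likelihood test. At an unadjusted p under 0.05 these fits had 2725, 2844 and 3692 genes, of which 12, 11 and 15 were members. The replicate block left 0 called members and 0 genes, with 13 and 2949 at an unadjusted p under 0.05. The labels do not say whether equal replicate numbers pair the mice. Deviations of same-numbered libraries from their group means correlated at -0.33, -0.23 and -0.05, and those of differently numbered libraries at -0.07 to 0.27. With 3 libraries per group such correlations cannot settle the pairing. The block fit and the fits with 1 library left out have fewer residual degrees of freedom by construction. The fit without YAP2-5SA-∆C replicate 2, with 816 called genes, is among these. What sets the counts was not tested.

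Of 25 members with full statistics, 5 turned direction somewhere, each with a log2 fold change near 0. Leaving out 1 library gave *Itga3* from -0.097 to 0.174, *Itga2* from -0.0023 to 0.229, *Itgav* from -0.030 to 0.063, *Nid1* from -0.075 to 0.071 and *Fermt1* from -0.076 to 0.083. *Nid1* was also 0.0050 with RLE, 0.016 with upper-quartile scaling, 0.0074 with no filter and 0.0059 with DESeq2. *Fermt1* was also 0.0015 with upper-quartile scaling. *Itgad* and *Itgb2l* were tested with no filter on low counts and were not called.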
